A study of Mus musculus with 19 samples.

Results

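The transcription factors that commit thymocyte precursors to the T-cell fate were followed across 3 thymocyte populations with and without Rptor, which encodes Raptor, a subunit of mTORC1. The group held 10 genes, Lef1, Tcf7, Bcl11b, Gata3, Ikzf1, Runx1, Runx3, Myb, Satb1 and Bach2, chosen by symbol. Each was read from the probe set that carries its symbol alone, and where several did, from the brightest by its mean across the 19 arrays. This gave 9 of the 10 genes, out of 22180 genes measured. Tcf7, which encodes TCF1, was not analysed here because no probe set carried its symbol in the annotation used.

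The cells were sorted from thymi of C57BL/6 mice, and biotin-labelled cDNA was hybridised to expression arrays. In immature single-positive (ISP) cells there were 3 Rptor-/- and 4 WT arrays. In DN3a thymocytes, which precede the pre-TCR checkpoint, there were 3 Rptor-/- and 3 WT arrays. In γδ T cells there were again 3 Rptor-/- and 3 WT arrays. Rptor-/- cells came from CD2-cre mice crossed to Raptorfl/fl mice, so deletion depends on a Cre driven by CD2 sequences, which is active in lymphoid cells. Whether WT mice carried the Cre or the loxP-flanked allele, and how many animals stand behind an array, was not stated in the sources used here, and p-values then measure only the spread between these samples. ISP cells were sorted as CD8-positive cells without CD4 and TCRβ, and DN3a cells as CD25-high cells without CD44, CD28 and either TCR. The γδ gate removed cells with CD4, CD8, TCRβ, NK1.1 or Gr1, and the protocol names no positive selection for the γδ receptor.

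T-cell commitment is carried by a small set of regulators that act in sequence. Notch signals induce TCF1 and GATA3, these help to switch on Bcl11b, and Bcl11b shuts off the progenitor programme. LEF1 and TCF1 are HMG-box proteins that bind the same DNA motif and also mediate Wnt signals, while RUNX proteins, MYB, Ikaros (Ikzf1) and SATB1 set chromatin state and enhancer activity at T-cell genes. BACH2 is a repressor that restrains effector genes. After commitment, αβ-lineage cells pass from DN3 through pre-TCR signalling to the ISP stage, while γδ T cells branch off at around DN3.

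All values below are log2 expression values. Array medians were 3.80 to 3.88 in ISP cells and 6.03 to 6.13 in DN3a and γδ T cells, so the ISP arrays appear to have been normalized apart from the rest, and no ISP level is set against another population. The 5 measured ISP markers averaged 9.86 to 9.98 per Rptor-/- ISP array and 9.63 to 10.1 per WT ISP array. The 6 measured DN3a markers all fell in WT γδ T cells relative to WT DN3a cells, among them Il2ra at -3.48, Rag2 at -3.85, Notch1 at -2.05 and its target Hes1 at -1.54. Of 5 measured γδ markers 4 rose and 1 fell in the same comparison, and the γδ receptor constant-region genes Trdc, Tcrg-C1 and Tcrg-C2 were not among those measured. Rptor itself fell by 0.58 in Rptor-/- DN3a cells (adjusted p = 6.0e-04), by 0.24 in Rptor-/- ISP cells (adjusted p = 0.0384) and by 0.30 in Rptor-/- γδ T cells (adjusted p = 0.0489). The γδ call was lost without any 1 of the 6 γδ arrays (adjusted p 0.0713 to 0.156). In ISP cells Rptor did not pass when Rptor-/- array 1 or 2 or WT array 1, 2 or 4 was left out, and its difference ranged over -0.31 to -0.18. The ISP groups overlapped for Rptor, with 6.06, 6.19 and 6.34 in Rptor-/- ISP cells and 6.49, 6.47, 6.34 and 6.47 in WT ISP cells, so that WT array 3 sat at the level of a Rptor-/- array. Where the probe set lies relative to the deleted exons was not stated in the sources used here.

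In ISP cells, 4 of the 9 measured factors rose in Rptor-/- relative to WT cells, 0 fell and 5 did not pass the test. The 4 were Lef1, Bcl11b, Satb1 and Myb, with rises of 1.27- to 1.6-fold. Over all genes tested, 12.4% were called at a limma adjusted p under 0.05 in this comparison, 5.87% as higher and 6.57% as lower. The median difference over the 9 factors was 0.29, against -0.0039 over all genes. The 6 measured DN3a markers averaged 7.06 to 7.11 per Rptor-/- ISP array and 6.85 to 7.06 per WT ISP array, with 3 called higher and 1 lower, and the part of this in the factors' values was not tested. In bulk samples such as these, fewer cells of a type and less RNA per cell cannot be told apart.

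Lef1, which encodes the HMG-box relative of TCF1, gave the largest difference among the factors in ISP cells. Its values were 10.88, 10.93 and 10.88 in Rptor-/- ISP cells and 10.19, 10.31, 10.21 and 10.19 in WT ISP cells. The lowest Rptor-/- array stood above the highest WT array, and the groups differed by a rise of 0.68 ± 0.07 (SE; adjusted p = 4.2e-06). Bcl11b, the zinc-finger factor whose onset marks commitment, had values of 9.69, 9.62 and 9.73 in Rptor-/- ISP cells and 9.20, 8.99, 9.11 and 9.15 in WT ISP cells. Every Rptor-/- array was above every WT array, with a rise of 0.57 ± 0.06 (SE; adjusted p = 5.5e-06). Satb1, a chromatin organiser of thymocytes, had values of 10.19, 10.34 and 10.38 in Rptor-/- ISP cells and 9.73, 9.86, 9.62 and 9.98 in WT ISP cells. These groups did not overlap either, and the rise was 0.50 ± 0.09 (SE; adjusted p = 7.0e-04). Myb, a factor that supports survival and recombination in thymocytes, had values of 10.48, 10.59 and 10.55 in Rptor-/- ISP cells and 10.26, 10.25, 9.99 and 10.31 in WT ISP cells. WT array 3 was the low one, and the rise was 0.34 ± 0.08 (SE; adjusted p = 0.00609). A second Myb probe set gave a rise of 0.48 (adjusted p = 0.00119). The Myb call was lost when the ISP arrays were fitted alone (adjusted p = 0.0665).

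**Figure D1:**
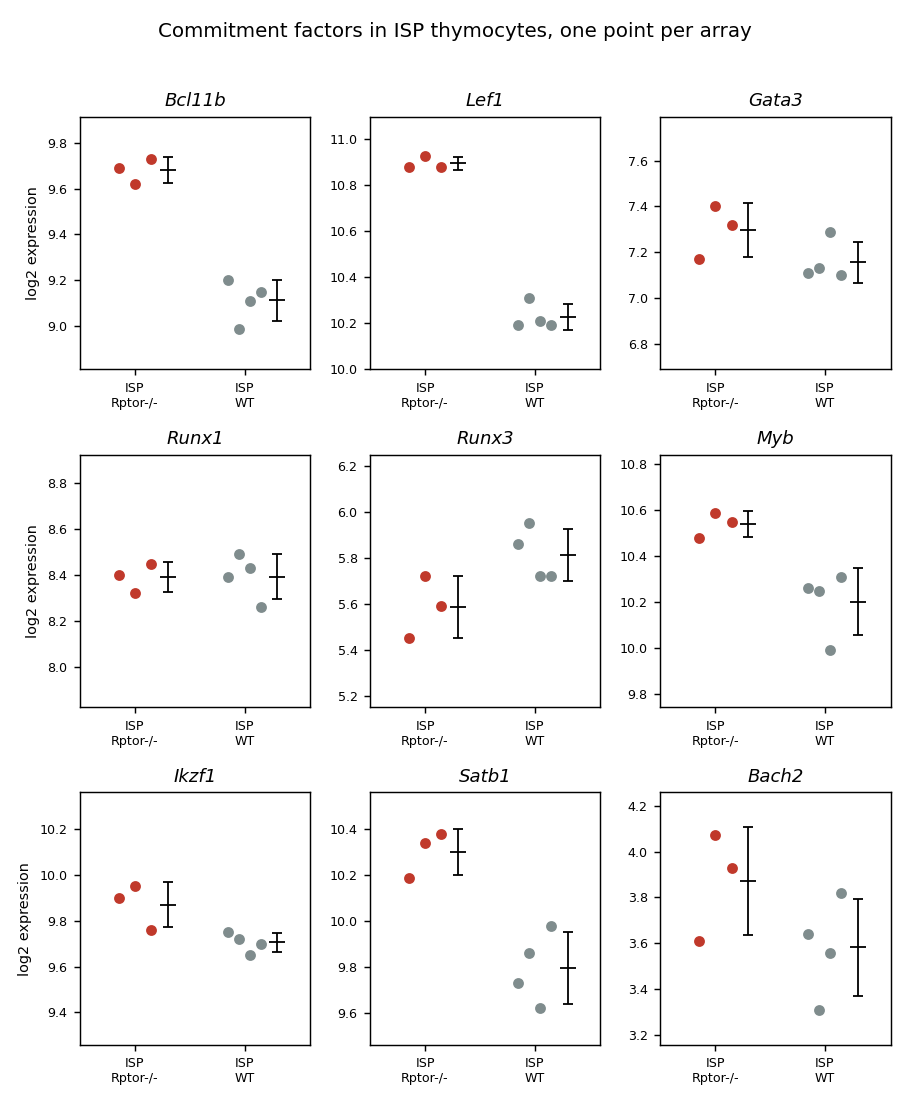
Log2 expression of the 9 measured commitment factors in ISP cells, with 1 point per array (3 Rptor-/- in red, 4 WT in grey) and the mean ± SD beside each group. Bcl11b, Lef1, Myb, Ikzf1 and Satb1 show no overlap between genotypes, while Gata3, Runx1, Runx3 and Bach2 overlap.

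Among the other factors, Ikzf1 also had non-overlapping groups, with values of 9.90, 9.95 and 9.76 in Rptor-/- ISP cells and 9.75, 9.72, 9.65 and 9.70 in WT ISP cells. The Ikzf1 difference of 0.16 did not pass over all genes (adjusted p = 0.142). It passed after a further quantile normalization, at 0.21 (adjusted p = 0.0421), and with an intensity trend (adjusted p = 0.0464). Non-overlap was thus seen for 5 of 9 factors, against 16.7% of all genes. Runx3, the RUNX factor of the CD8 lineage, differed by -0.22 (95% confidence interval -0.40 to -0.05; adjusted p = 0.0849). Runx3 passed after that normalization too, with a difference of -0.29 (adjusted p = 0.0293), and without Rptor-/- array 2 (adjusted p = 0.0497). Gata3, the GATA factor required from the earliest T-cell stages, differed by 0.14 (interval -0.02 to 0.30). Runx1, the RUNX factor that dominates in early thymocytes, differed by 0.00 with an interval of -0.15 to 0.15. Bach2 differed by 0.29 (adjusted p = 0.168), with a range of 0.19 to 0.42 when single arrays were left out and a call without Rptor-/- array 1 (0.42, adjusted p = 0.0439). The Bach2 values of 3.31 to 4.07 on the ISP arrays lay around the array medians. The intervals of Gata3 and Runx1 did not reach the differences of Lef1, Bcl11b and Satb1.

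The promoters of the 4 genes that rose in ISP cells are shown because these genes moved together. Each is the 250 bases before the most upstream start in RefSeq (build GRCm38.p6), written along the gene, with capitals marking matches to the motifs given below.
Lef1, chr3:131110047-131110296, plus strand: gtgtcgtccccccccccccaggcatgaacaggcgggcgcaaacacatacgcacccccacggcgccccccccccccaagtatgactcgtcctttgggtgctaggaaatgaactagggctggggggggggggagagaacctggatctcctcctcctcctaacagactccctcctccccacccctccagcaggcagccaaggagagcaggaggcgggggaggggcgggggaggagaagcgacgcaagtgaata
Bcl11b, chr12:108003415-108003664, minus strand: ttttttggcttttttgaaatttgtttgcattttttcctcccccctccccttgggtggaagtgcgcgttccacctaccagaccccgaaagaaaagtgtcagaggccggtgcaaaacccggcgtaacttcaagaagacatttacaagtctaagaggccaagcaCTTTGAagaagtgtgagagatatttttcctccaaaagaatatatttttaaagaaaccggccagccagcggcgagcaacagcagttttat
Satb1, chr17:51833291-51833540, minus strand: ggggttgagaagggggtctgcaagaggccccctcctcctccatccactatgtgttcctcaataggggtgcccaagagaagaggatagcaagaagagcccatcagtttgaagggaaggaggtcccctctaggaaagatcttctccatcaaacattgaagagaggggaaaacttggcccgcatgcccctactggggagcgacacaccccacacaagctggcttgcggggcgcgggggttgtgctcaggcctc
Myb, chr10:21160985-21161234, minus strand: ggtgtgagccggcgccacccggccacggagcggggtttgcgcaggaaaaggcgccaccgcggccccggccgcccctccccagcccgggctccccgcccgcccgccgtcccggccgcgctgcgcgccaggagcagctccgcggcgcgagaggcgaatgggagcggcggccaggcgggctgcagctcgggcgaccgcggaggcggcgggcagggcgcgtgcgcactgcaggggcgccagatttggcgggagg
Both strands were searched for short motifs, RUNX as TGTGGT or TGCGGT, TCF/LEF as CTTTGA or CTTTGT, the GATA motif as AGATAA or TGATAA, Ikaros as TGGGAA, and MYB as CAACGG or CAACTG or TAACGG or TAACTG, and no match overlapped another. The Bcl11b window held 1 TCF/LEF match, CTTTGA, whose first base is at -89 from the start. The Lef1, Satb1 and Myb windows held no match to any of these letters. GC content was 66.4% for Lef1, 44.8% for Bcl11b, 58.0% for Satb1 and 81.2% for Myb. Over the windows of all 10 genes, Tcf7 included, 3 held a TCF/LEF match and 1 each a RUNX, GATA, Ikaros or MYB match. The Tcf7 window held no match. It contains an ATG followed by codons without a stop up to its end, so it may hold coding rather than promoter sequence. Among 32851 mouse promoters of the same length the shares were 27.6% for TCF/LEF, 18.6% for RUNX, 16.6% for GATA, 21.6% for Ikaros and 23.7% for MYB. Those shares count a gene once per annotated start, whereas each factor is counted once, by its most upstream start.

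In DN3a cells, Lef1 alone of the 9 factors passed the test, and it was again higher in Rptor-/- cells. Lef1 had values of 11.75, 12.00 and 11.72 in Rptor-/- DN3a cells and 11.18, 10.98 and 11.03 in WT DN3a cells. All 3 Rptor-/- arrays stood above the WT arrays, with array 2 the highest, and the rise was 0.76 ± 0.08 (SE), or 1.69-fold (adjusted p = 2.5e-05). In this comparison 0.983% of all genes were called, 0.712% as higher and 0.271% as lower. The other 8 factors did not pass, and the median difference over the 9 was -0.03, against 0.0112 over all genes. None of the 5 measured ISP markers passed the limma test here, with 2 at an unadjusted p under 0.05 and list means of 8.0 to 8.08 per Rptor-/- DN3a array and 8.20 to 8.47 per WT DN3a array. The 6 measured DN3a markers averaged 10.49 to 10.51 per Rptor-/- DN3a array and 10.14 to 10.23 per WT DN3a array, with 1 called higher and a median difference of 0.29, and the part of this in the Lef1 value was not tested.

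Satb1 lay on the opposite side in DN3a cells, with values of 10.68, 10.77 and 10.88 in Rptor-/- cells and 11.16, 11.10 and 11.11 in WT cells. The groups did not overlap, but the difference of -0.35 ± 0.10 (SE) did not pass over all genes (adjusted p = 0.115). Bach2 had values of 8.13, 8.05 and 8.40 in Rptor-/- DN3a cells and 8.40, 8.47 and 8.64 in WT DN3a cells, a difference of -0.31 (adjusted p = 0.408), and the pair at 8.40 was ordered with the other arrays before rounding. Ikzf1 and Runx3 each differed by -0.17 (adjusted p = 0.417 for Ikzf1 and 0.534 for Runx3). These 4 genes and Lef1 had non-overlapping groups, 5 of 9 factors, against 17.1% of all genes. Bcl11b, which was among the 4 risers in ISP cells, averaged 11.92 ± 0.05 in Rptor-/- DN3a cells and 11.92 ± 0.03 in WT DN3a cells (SD, n = 3 each), with an interval of the difference of -0.15 to 0.14. Myb differed by 0.03 (interval -0.15 to 0.20) and Runx1 by -0.03 (interval -0.19 to 0.13). Gata3 differed by 0.13 (interval -0.05 to 0.30). Of the 4 factors that rose in Rptor-/- ISP cells, Lef1 was thus the one that passed in DN3a cells.

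In γδ T cells none of the 9 factors passed the limma test, and none had an unadjusted p under 0.05. Over all genes 3.05% were called, 1.77% as higher and 1.28% as lower. Lef1 had values of 12.05, 12.07 and 12.00 in Rptor-/- γδ T cells and 11.98, 11.93 and 11.92 in WT γδ T cells. These did not overlap, but the difference was only 0.10 (interval -0.06 to 0.26; adjusted p = 0.572). Bach2 gave the largest difference, 0.25 (interval -0.03 to 0.53; adjusted p = 0.379), with values of 9.39, 9.58 and 9.30 in Rptor-/- γδ T cells and 9.28, 9.01 and 9.23 in WT γδ T cells. Ikzf1 differed by -0.13 and Runx3 by 0.12, while Gata3 and Satb1 each differed by -0.10. Runx1 differed by -0.07, and Bcl11b and Myb by -0.05 each. Non-overlapping groups were found for Lef1, Bach2 and Ikzf1, 3 of 9, against 21% of all genes. Over the 9 factors the intervals ran from -0.30 at the low end to 0.53 at the high end.

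**Figure D2:**
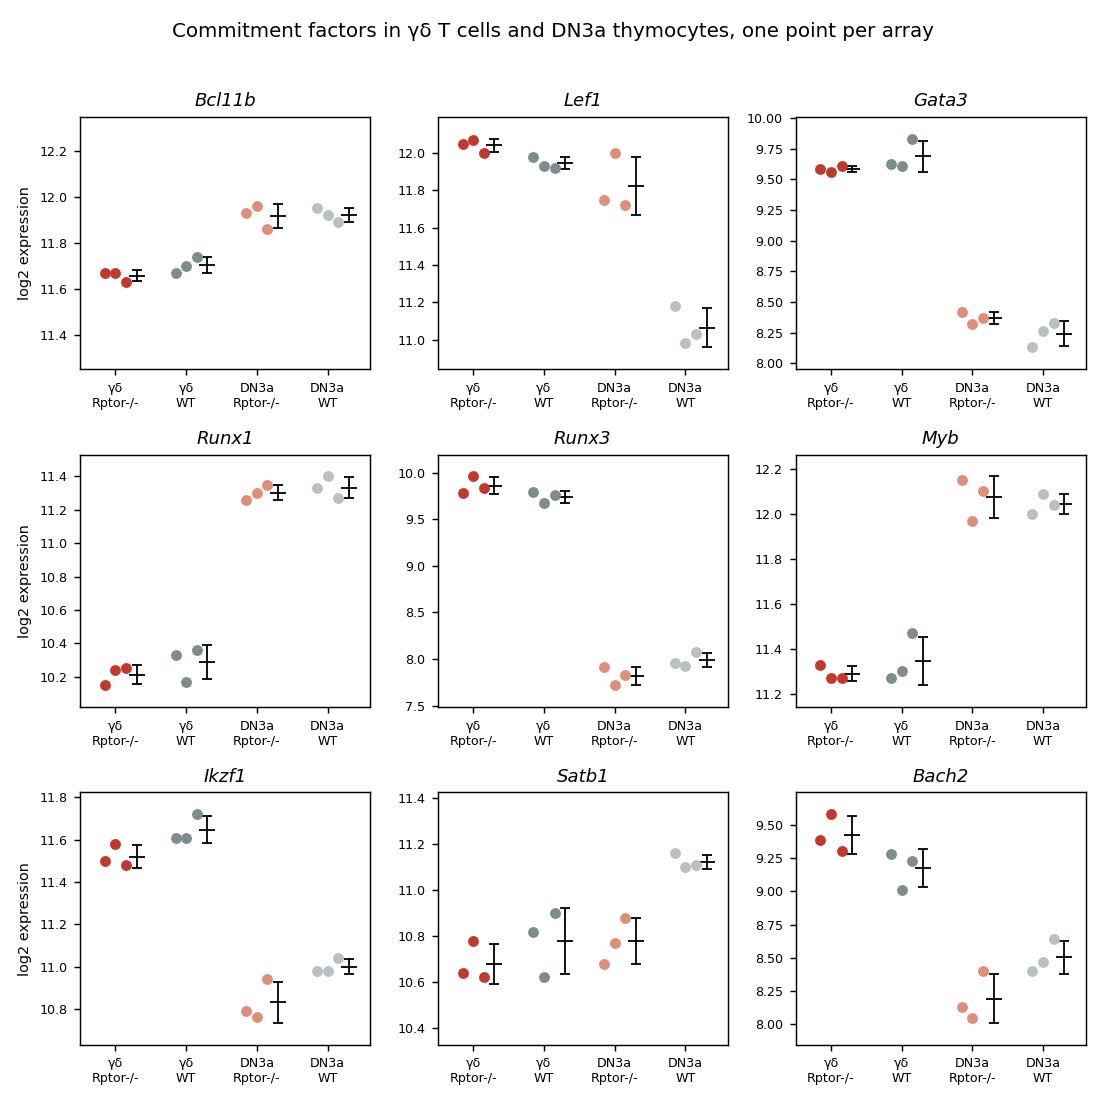
Log2 expression of the 9 factors in γδ T cells and DN3a thymocytes, with 1 point per array, 3 arrays per group and the mean ± SD beside each. Lef1 is low only in WT DN3a cells, at 10.98 to 11.18, while the other 3 groups lie at 11.72 to 12.07. Gata3, Runx3, Runx1, Myb, Ikzf1, Bach2 and Bcl11b separate γδ T cells from DN3a cells in both genotypes.

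Genes listed as ISP markers also differed by genotype in the γδ samples. Of 5 measured, 4 were lower in Rptor-/- γδ T cells, namely Cd8b1, Cd8a, Mki67 and Cd24a. The list averaged 7.71 to 8.03 per Rptor-/- array and 8.51 to 8.68 per WT array. Cd24a is also on the γδ marker list, and Mki67 averaged 10.57 in Rptor-/- γδ T cells and 11.31 in WT γδ T cells. Cd8b1, the CD8β chain, averaged 7.09 ± 0.61 in Rptor-/- γδ T cells and 8.81 ± 0.05 in WT γδ T cells (SD, n = 3 each; adjusted p = 1.0e-04), although the gate removed CD8-positive cells. The part of this in the factors' values was not tested. Of 45 measured markers of B, dendritic, myeloid, natural killer and innate lymphoid, erythroid, mast and stromal cells, 1 was higher and 2 were lower in Rptor-/- γδ T cells. These γδ calls were Fcer1g at 1.65, Gzma at -0.37 and Cpa3 at -0.40. In Rptor-/- ISP cells 1 of the 45 was higher, Pecam1 at 0.39, and none was lower. In Rptor-/- DN3a cells 2 were higher, Lyz2 at 1.04 and Epcam at 0.67, and 1 was lower, Cpa3 at -1.88. The other 8 myeloid, 6 stromal and 5 mast cell markers did not pass in DN3a cells. Their list medians there were -0.11, -0.06 and 0.01, in that order. Cpa3 itself averaged 10.24 in WT DN3a cells, while the 6 mast cell markers, Cpa3 included, averaged 5.22 to 5.32 per WT DN3a array. In the γδ genotype comparison 4 of 6 natural killer and innate lymphoid markers and 5 of 6 mast cell markers did not pass. The changes of Lyz2 and Cpa3 in DN3a cells and of Fcer1g in γδ T cells exceeded that of any factor there. The part of these in the factors' values was not tested.

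Whether the genotype difference itself differed between populations was tested as an interaction. For Lef1 the γδ difference was smaller than the DN3a difference by 0.66 ± 0.11 (SE; -0.66 on the log2 scale, adjusted p = 0.0048), and no other factor passed in that contrast, in which 0.6% of all genes were called. For Bcl11b the ISP difference exceeded the DN3a difference by 0.57 ± 0.09 (SE; adjusted p = 9.5e-04) and the γδ difference by 0.62 ± 0.09 (SE; adjusted p = 5.8e-04). For Satb1, which was higher in Rptor-/- ISP cells and had the opposite sign in DN3a cells, the ISP difference exceeded the DN3a difference by 0.85 ± 0.13 (SE; adjusted p = 7.0e-04) and the γδ difference by 0.60 ± 0.13 (SE; adjusted p = 0.0102). Lef1 also rose more in ISP than in γδ T cells, by 0.58 ± 0.11 (SE; adjusted p = 0.00288). Between ISP and DN3a cells the Lef1 difference changed by -0.09, with an interval of -0.31 to 0.14. Across all genes 7.01% were called in the ISP against DN3a contrast and 5.78% in the ISP against γδ contrast, and the factors called were 2 and 3 of 9. Contrasts with ISP set differences against each other that were measured on arrays of unlike scale. Ikzf1 and Bach2 lay close to the threshold in ISP against DN3a, at adjusted p = 0.0506 for Ikzf1 and 0.0539 for Bach2.

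**Figure D3:**
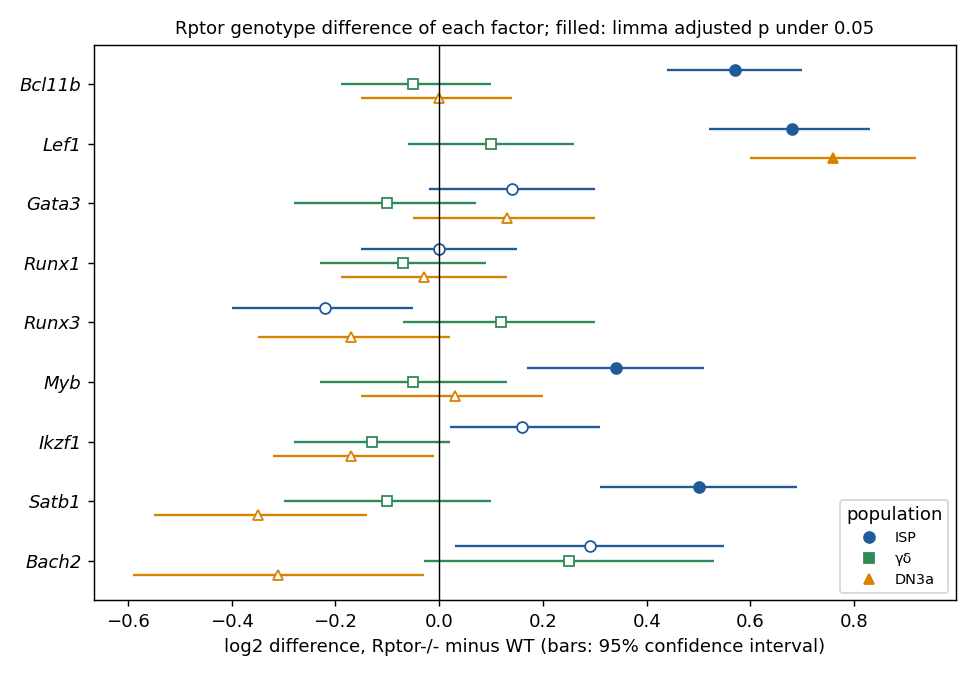
Log2 difference between Rptor-/- and WT arrays for each factor in ISP, γδ and DN3a cells, with bars for the 95% confidence interval and filled symbols for a limma adjusted p under 0.05. The filled symbols are Lef1, Bcl11b, Satb1 and Myb in ISP cells at 0.34 to 0.68 and Lef1 in DN3a cells at 0.76, and every γδ symbol is open.

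WT γδ T cells and WT DN3a cells differed in all 9 measured factors, 5 higher and 4 lower in γδ T cells. Runx3, Gata3, Lef1, Bach2 and Ikzf1 were higher, and Runx1, Myb, Satb1 and Bcl11b were lower. All 9 had non-overlapping groups, against 38.9% of all genes, and 25.1% of all genes were called, 12.7% as higher and 12.3% as lower. The median absolute difference was 0.70 over the 9 factors and 0.133 over all genes. The 2 RUNX genes stood at opposite ends of the order, Runx3 at the top and Runx1 at the bottom.

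Runx3 had values of 9.79, 9.67 and 9.76 in WT γδ T cells and 7.96, 7.93 and 8.07 in WT DN3a cells. This was the largest rise among the factors, 1.76 ± 0.09 (SE), or 3.38-fold (adjusted p = 4.7e-12). Runx1 ran the other way, with values of 10.33, 10.17 and 10.36 in WT γδ T cells and 11.33, 11.40 and 11.27 in WT DN3a cells. It fell by 1.05 ± 0.08 (SE; adjusted p = 1.8e-09). The Runx3 promoter is printed as the gene with the largest difference. It held 2 RUNX matches, ACCACA on the opposite strand with first bases at -134 and -126, and 1 Ikaros match, TGGGAA at -154, marked in capitals.
Runx3, chr4:135120395-135120644, plus strand: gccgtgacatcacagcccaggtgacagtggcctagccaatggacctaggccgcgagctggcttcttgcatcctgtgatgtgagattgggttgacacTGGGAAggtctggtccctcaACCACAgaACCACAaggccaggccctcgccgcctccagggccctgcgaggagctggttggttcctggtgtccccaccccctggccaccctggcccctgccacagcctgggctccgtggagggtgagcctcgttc

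Gata3 had values of 9.62, 9.61 and 9.83 in WT γδ T cells and 8.13, 8.26 and 8.33 in WT DN3a cells, a rise of 1.45 ± 0.08 (SE; adjusted p = 4.9e-11). A second, dimmer Gata3 probe set gave a rise of only 0.34 (adjusted p = 0.0139), so the direction held on both probe sets and the size did not. Lef1 had values of 11.98, 11.93 and 11.92 in WT γδ T cells and 11.18, 10.98 and 11.03 in WT DN3a cells. It rose by 0.88 ± 0.08 (SE; adjusted p = 3.0e-08). This comparison and the DN3a genotype comparison, where Lef1 rose by 0.76, share the 3 WT DN3a arrays. Bach2 had values of 9.28, 9.01 and 9.23 in WT γδ T cells and 8.40, 8.47 and 8.64 in WT DN3a cells, a rise of 0.67 ± 0.13 (SE; adjusted p = 6.8e-04). Ikzf1, which encodes Ikaros, had values of 11.61, 11.61 and 11.72 in WT γδ T cells and 10.98, 10.98 and 11.04 in WT DN3a cells, a rise of 0.65 ± 0.07 (SE; adjusted p = 8.1e-07). The 5 risers thus spanned 1.57- to 3.38-fold.

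Myb had values of 11.27, 11.30 and 11.47 in WT γδ T cells and 12.00, 12.09 and 12.04 in WT DN3a cells. It fell by 0.70 ± 0.08 (SE; adjusted p = 2.0e-06), and by 0.74 on its second probe set. Satb1 had values of 10.82, 10.62 and 10.90 in WT γδ T cells and 11.16, 11.10 and 11.11 in WT DN3a cells. WT γδ array 2 was the low one. The fall was 0.34 ± 0.10 (SE; adjusted p = 0.0119), and without that array the difference was -0.26 and did not pass (adjusted p = 0.0846). Bcl11b had values of 11.67, 11.70 and 11.74 in WT γδ T cells and 11.95, 11.92 and 11.89 in WT DN3a cells. Its fall of 0.22 ± 0.07 (SE; adjusted p = 0.0231) was the smallest of the 9 differences. The Bcl11b call was lost without WT DN3a array 1 or 2 or WT γδ array 1 or 2 (adjusted p 0.0604 to 0.0803), when the 6 arrays were fitted alone (adjusted p = 0.0511), and after a further quantile normalization (-0.18, adjusted p = 0.058).

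**Figure D4:**
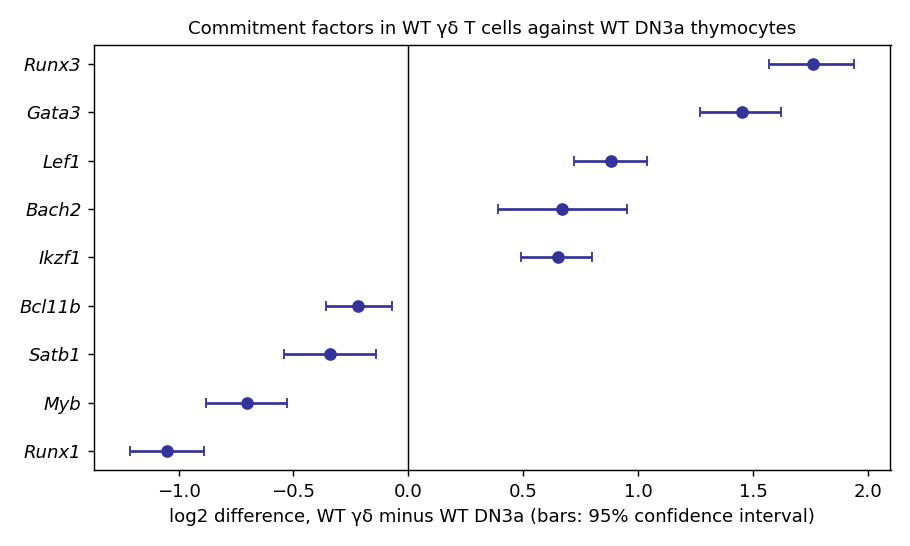
Log2 difference between WT γδ T cells and WT DN3a cells for the 9 factors in order of size (3 arrays per population), with bars for the 95% confidence interval. Runx3 at 1.76 and Gata3 at 1.45 lie farthest to the right and Runx1 at -1.05 farthest to the left, and no interval crosses 0.

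Between sorted cells of unlike types, markers of further cell types also moved. Of 6 measured natural killer and innate lymphoid markers 5 were higher in WT γδ T cells, with list means of 7.42 to 7.48 per WT γδ array and 6.69 to 6.83 per WT DN3a array. The part of this in the factors' values was not tested, and γδ T cells can express several of these genes themselves. Over the 45 markers of 7 other cell types 8 were higher and 6 were lower in WT γδ T cells.

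The gene lists below are to be read against the shares of all genes called, 12.4% in ISP, 0.983% in DN3a and 3.05% in γδ cells and 25.1% between WT γδ and WT DN3a cells. Of 22 measured partners and relatives of the factors, 5 rose and 1 fell in Rptor-/- ISP cells, with a median of 0.05. Ikzf3 (Aiolos) rose by 0.74 (adjusted p = 2.5e-04), Ikzf2 (Helios) by 0.60 (adjusted p = 5.0e-04) and Bach1, the relative of Bach2, by 0.46 (adjusted p = 0.00316). Tle4, a Groucho corepressor that binds LEF1, TCF1 and RUNX proteins, fell by 1.01 (adjusted p = 3.0e-05). In Rptor-/- DN3a cells Ikzf4 (Eos) rose by 0.71 (adjusted p = 0.00244) while Ikzf2 fell by 0.65 (adjusted p = 0.00404), and no other of the 22 passed. In Rptor-/- γδ T cells Ikzf4 rose by 0.90 (adjusted p = 8.8e-05) and Zfpm1, the GATA cofactor FOG1, by 0.50 (adjusted p = 0.00108), and the other 20 did not pass. Helios thus had opposite signs in ISP and DN3a cells, and Eos was higher in Rptor-/- cells of both DN3a and γδ type. In WT γδ T cells against WT DN3a cells 7 of the 22 rose and 2 fell, led by Ikzf3 at 3.63, Ikzf2 at 0.96, Zfpm1 at 0.79 and the zinc-finger gene Patz1 at -1.03.

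Progenitor factors that commitment turns off were measured for 19 genes. Of these, 1 passed in ISP cells, 2 in DN3a cells and 0 in γδ T cells, where limma gave 4 at an unadjusted p under 0.05. The ISP gene was Cebpb, a myeloid factor, which fell by 0.57 (adjusted p = 0.00393, and 0.114 with ISP arrays alone). The 2 DN3a calls, 1 higher and 1 lower, ranged from 0 to 2 when single arrays were left out. In WT γδ T cells 2 rose and 6 fell relative to WT DN3a cells. Erg, an ETS factor of progenitors that is also among the DN3a markers, averaged 6.01 ± 0.28 in WT γδ T cells and 9.20 ± 0.05 in WT DN3a cells (SD, n = 3 each), and Bcl11a, a progenitor and B-lineage factor, averaged 5.71 ± 0.15 in WT γδ T cells and 7.58 ± 0.14 in WT DN3a cells. Both falls passed, at adjusted p = 1.7e-13 for Erg and 7.3e-09 for Bcl11a. Irf8, among the 2 that rose, was higher by 0.61 (adjusted p = 3.0e-04). The Bcl11a difference was -1.87, and -0.93 with its probe sets averaged.

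T-cell identity genes include many that these factors control. Of 20 measured, 6 rose and 1 fell in Rptor-/- ISP cells, with a median of 0.20. Cd27, a costimulatory receptor, rose by 0.83 (adjusted p = 8.8e-06), Cd2, an adhesion receptor, by 0.82 (adjusted p = 9.1e-04) and Ptcra, the pre-TCR α chain, by 0.63 (adjusted p = 3.1e-04). Il7r, the interleukin-7 receptor chain, fell by 1.68 (adjusted p = 4.2e-06), averaging 3.90 ± 0.09 in Rptor-/- ISP cells and 5.58 ± 0.55 in WT ISP cells (SD, n = 3 and 4). The Rptor-/- average lay near the ISP array medians of 3.80 to 3.88, so the size of the Il7r fall is uncertain. In Rptor-/- DN3a cells Ptcra rose by 0.68 (adjusted p = 0.00276) and Cd3d, a CD3 chain, by 0.43 (adjusted p = 0.00341), and no other passed. In Rptor-/- γδ T cells the 2 calls were both falls, Cd8b1 among them, and the count was 1 to 2 when single arrays were left out. In WT γδ T cells 7 rose and 7 fell relative to WT DN3a cells, including Cd2 at 3.73, the kinase gene Zap70 at 2.24, Ptcra at -4.28 and Ly6d at -4.23.

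Target genes of LEF1, TCF1 and Wnt signalling were measured for 12 genes. In this list 0 passed the limma test in ISP cells, with 3 at an unadjusted p under 0.05, and 0 passed in DN3a cells, with 0 at an unadjusted p under 0.05. In γδ T cells 2 rose, among them Rnf43, which removes Wnt receptors from the surface, by 0.67 (adjusted p = 8.1e-04). That count was 1 to 2 when single arrays were left out. A link between these genes and Lef1 was not tested. In WT γδ T cells relative to WT DN3a cells 3 rose and 1 fell, 4 of 12 against 25.1% of all genes, with Axin2, a feedback inhibitor of Wnt signalling, at 0.98 (0.48 with probe sets averaged), Rnf43 at 0.61 and Myc at -1.68.

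Factors of the γδ and innate-like effector programme were measured for 14 genes, and all 14 rose in WT γδ T cells relative to WT DN3a cells, with a median of 1.46. Etv5 rose by 5.08, Maf by 4.25, Zbtb16, which encodes PLZF, by 2.81 and Sox13 by 2.78. In Rptor-/- γδ T cells 3 of the 14 rose, among them Zbtb16 by 0.74 (adjusted p = 0.00138). The γδ count was 1 to 3 when single arrays were left out. In Rptor-/- ISP cells 1 fell. It was Id3, an inhibitor of E proteins that is induced by receptor signals, and it fell by 2.29 ± 0.12 (SE; adjusted p = 1.1e-09), more than any of the 9 factors moved in ISP cells. In Rptor-/- DN3a cells 2 rose, a count that was 0 to 1 when single arrays were left out.

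For the 3 factors with the largest differences, the genes with the most similar set of 4 differences (ISP, DN3a and γδ genotype, and WT γδ against DN3a) were found by Euclidean distance in log2 units. Tnfsf11, which encodes RANKL, lay nearest to Runx3 at 0.188, with Gdf11 next at 0.201. Acsf2 lay nearest to Gata3 at 0.105 and Msn, which encodes moesin, next at 0.118. Smarca4, the BRG1 ATPase of chromatin remodelling complexes, lay nearest to Runx1 at 0.0647 and Nt5c2 next at 0.0809. All 6 passed the test in WT γδ T cells against WT DN3a cells and in none of the 3 genotype comparisons.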

How the data were processed

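Sorted mouse thymocytes were profiled on 19 arrays from 12 ng of RNA each, per the labels. The authors deposited log2 expression values per probe set, made with RMA in Partek 6.6, per the submitters' processing notes, and the notes used here do not say whether all arrays were normalized as 1 set. The number of arrays limits the precision. Of 41345 probe sets, 23521 carried 1 symbol, 1814 carried several and 16010 were not named in the annotation used. The latter kinds were left out. For 23328 of the probe sets with 1 symbol the Entrez ID was found in a RefSeq table (GRCm38.p6). The symbol of that table was used for them, whether or not it differed. Among the 22180 genes, several probe sets were available for 1082, which kept the brightest.

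Tests used limma 3.58.1 (R 4.3.3), in 1 model of 6 group means over 19 arrays, with Benjamini-Hochberg adjustment over 22180 genes, a threshold of 0.05 and no filter on low signal. Interactions are differences of genotype effects in that model. Every adjusted p is limma's, and intervals are 95% intervals. By exact two-sided permutation tests the smallest p is 0.1 with 3 against 3 arrays, which cannot reach 0.05. With 3 against 4 arrays it is 0.0571 when the smaller tail is doubled, as was done here, and 0.0286 without doubling. The code was tested on simulated data.

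The factors and the gene lists were chosen with earlier results of these data known. From each list up to 4 called genes per comparison could be named, smallest p first. Of these, cell-type and stage markers apart, genes whose call was lost when single arrays were left out are given as counts. That was a choice made after seeing the data. Alternatives were other normalizations, probe-set averages, a low-signal filter, an intensity trend, smaller fits, a replicate block and leaving out each array. The other Gata3 and Myb probe sets were added after seeing the data. Scan or hybridisation batches were not stated in the sources used here. Promoters are from RefSeq, which held all 10 genes.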

Additional observations from a re-analysis of the deposited data

Results flagged for a closer look

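In ISP WT cells 3 values stood far from the other 3 arrays of the group, where chance sets apart about 1 in 20 such groups. The highest and lowest WT values were screened for the 9 factors, Rptor and the other genes named in the ISP genotype comparison. With that many genes screened some such groups arise by chance, and whether 3 is more than chance gives was not tested. Cd27 was 9.14 in WT array 4 and 8.68 to 8.73 in the others, Lef1 was 10.31 in WT array 2 and 10.19 to 10.21 in the others, and Rptor was 6.34 in WT array 3 and 6.47 to 6.49 in the others. All 3 values lay toward the Rptor-/- arrays, and the Rptor value equalled that of Rptor-/- array 3 at 6.34.

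The genotype difference of 3 factors differed between populations by an interaction test. The Lef1 difference changed by -0.66 between γδ and DN3a cells and by 0.58 between ISP and γδ T cells. The Bcl11b difference was larger in ISP cells by 0.57 against DN3a cells and by 0.62 against γδ T cells. The Satb1 difference was larger in ISP cells by 0.85 against DN3a cells and by 0.60 against γδ T cells.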

How the results depend on the processing

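Lef1, Bcl11b and Satb1 in ISP cells and Lef1 in DN3a cells kept their direction and their call under every alternative run. The number of factors called in ISP cells was 3 with ISP arrays alone, 5 with an intensity trend, 6 after a further quantile normalization and 4 to 5 without single arrays. With only the compared arrays fitted, 1313 genes were called in ISP, 144 in DN3a and 345 in γδ cells, with fewer samples behind each estimate of spread. Without single arrays the counts were 124 to 254 in DN3a and 333 to 782 in γδ cells. Between ISP and DN3a cells the factors with a differing genotype effect numbered 4 after a further quantile normalization, without the dimmest 25% of genes or with probe sets averaged, 5 with an intensity trend, and 2 to 4 without single arrays. Between ISP and γδ T cells they numbered 5 with an intensity trend. The cause was not tested.

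The replicate block gave 2629 genes in ISP, 212 in DN3a and 691 in γδ cells and 5651 in WT γδ against DN3a cells, with 4, 1, 0 and 9 factors called, and it ended the Rptor calls in ISP cells (adjusted p = 0.147) and γδ T cells (adjusted p = 0.117). Deviations of same-numbered arrays correlated at -0.104 to 0.242, below 0.1 in some pair of every comparison, so the numbers were not taken to pair the samples. Every array correlated best with its own number between WT γδ and WT DN3a cells (0.026 to 0.099), as did 2 of 3 in the DN3a genotype pairs (0.242 and 0.169), 1 of 3 in ISP and 0 of 3 in γδ cells.

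Signs turned only for factors that had not passed. In ISP cells Runx1 was 0.03 after a further quantile normalization and -0.05 to 0.03 without single arrays. In DN3a cells Myb was -0.08 with probe sets averaged, -0.20 on its other probe set and -0.01 to 0.08 without single arrays, Bcl11b -0.02 to 0.02 and Runx1 -0.06 to 0.00. In γδ T cells Gata3 was 0.02 averaged and 0.15 on its other probe set, and Myb 0.01 on its other probe set and -0.09 to 0.01 without single arrays. Between γδ and DN3a effects, Bcl11b and Runx1 were 0.00 after median centring and Myb 0.06 averaged. Between ISP and DN3a effects, Gata3 was -0.02 after a further quantile normalization, -0.09 averaged, -0.01 with the block and -0.04 to 0.08 without single arrays, Runx1 -0.02 with the block and -0.02 to 0.06 without single arrays, Runx3 -0.12 to 0.01 and Lef1 -0.14 to 0.00 without single arrays. Between ISP and γδ effects, Bach2 was -0.01 after centring and -0.06 to 0.17 without single arrays.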
